A study of Mus musculus with 2 samples.

Results

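The genes described here build the route by which a newly made secretory protein enters the endoplasmic reticulum (ER) and leaves it in vesicles. They number 47 of the 31054 features of the series and were chosen by function, with earlier results of these data known. They fall into 7 machines, with 6 genes of the signal recognition particle (SRP) and its receptor, 10 of the translocon, 5 of the signal peptidase, 7 of the oligosaccharyltransferase, 5 p24 cargo receptors, 7 of the COPI coat and 7 of the COPII coat. They were read in single cells of pancreatic islets from male C57Bl6 mice at 12 weeks of age. The Tg7 library came from mice with a β-cell-specific overexpression of the microRNA miR-7a2. The Wild-type (Wt) library came from their littermates. By the study's methods, the animals used for single-cell RNA-seq in both groups also carried rat Ins2-Cre and a floxed-stop tdTomato reporter at Rosa26. Neither the promoter of the miR-7a2 transgene nor the number of mice behind each library is given in the sources used here. With 1 library per group there are no replicates, no difference between the genotypes could be tested against the spread between animals, and genotype and library cannot be told apart.

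Insulin is made as preproinsulin, whose signal peptide is recognised by SRP as it leaves the ribosome and brought to the SRP receptor on the ER membrane. The chain is threaded through the Sec61 channel, helped by Sec62, Sec63, Tram1 and the translocon-associated proteins Ssr1 to Ssr4, while the signal peptidase removes the signal peptide and the oligosaccharyltransferase adds sugar chains to the glycoproteins among its clients. COPII-coated vesicles then carry cargo towards the Golgi, COPI-coated vesicles bring material back, and p24 proteins travel in both as cargo receptors. Cells with a high secretory load, among them the hormone-producing cells of the islet, are known for an extensive ER.

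The Tg7 library held 29931777 UMIs in 1123 barcodes and the Wt library 30829078 UMIs in 855 barcodes, with 0 barcode sequences in common. After filters and removal of doublets 992 Tg7 and 749 Wt cells remained. A cell was placed in a hormone class if 1 hormone alone among Gcg, Sst, Ppy and insulin, the last read as Ins1 plus Ins2, made up at least 5% of its UMIs. This gave 596 Tg7 and 493 Wt insulin cells, 173 and 144 Gcg cells, 17 and 26 Sst cells and 19 and 10 Ppy cells. Detection of markers did not separate the classes, as all 7 listed for β-cells had UMIs in insulin and Gcg cells of both libraries. Per 10,000 non-hormone UMIs these markers, which include the hormone gene Iapp, summed to 2348 in Tg7 and 1508 in Wt insulin cells, against 164 and 17.4 in Gcg cells. The part of Iapp in the sums was not read apart, so they do not show how the other β-cell markers stood. The 6 listed for α-cells, which include Gcg itself, summed to 8541 in Tg7 and 7393 in Wt Gcg cells, against 107 and 31.2 in insulin cells. By the median over cells free hormone RNA was low, as insulin made up 0.0622% of UMIs in Tg7 and 0.145% in Wt Gcg cells. Summed over Gcg cells the order turned, at 0.497 insulin UMIs per UMI of the genes described here in Tg7 and 0.241 in Wt. The part of this RNA in the results for Gcg cells was not tested. The hormones take very different shares of the UMIs, with insulin at a median of 28.5% in Tg7 and 63.7% in Wt insulin cells. Levels are therefore given per 10,000 UMIs that did not come from the 7 hormone genes Ins1, Ins2, Gcg, Sst, Ppy, Pyy and Iapp. Scaling to all UMIs instead multiplies each Tg7 over Wt ratio in insulin cells by 1.74, a shift of 0.80 on the log2 scale that applies to all genes alike, so that directions in insulin cells are relative to that choice. Intervals are exact 95% intervals for the UMI counts and cover counting error only.

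Per non-hormone UMI, insulin cells held the largest share of these transcripts among the 4 hormone classes in both libraries, and per all UMIs they did so in Tg7 but not in Wt. In Wt, the 47 genes together made up 2.18% (2.17 to 2.19) of non-hormone UMIs in insulin cells, 1.82% (1.74 to 1.91) in Ppy cells, 1.22% (1.17 to 1.27) in Sst cells and 1.21% (1.20 to 1.23) in Gcg cells. The intervals of the last 2 classes overlapped. In Tg7 the order was the same for the first 2, with 2.48% (2.47 to 2.49) in insulin cells and 1.80% (1.74 to 1.86) in Ppy cells, followed by 1.45% (1.43 to 1.46) in Gcg and 1.31% (1.24 to 1.38) in Sst cells. Cells without a hormone at 5% or more, which include the non-endocrine cells, stood lowest on this scale at 0.909% in Tg7 and 0.626% in Wt. The 7 β-cell markers, Iapp among them, summed to 544 per 10,000 in these cells in Tg7 and to 17.2 in Wt. Per all UMIs the Wt order turned, with 0.959% in Sst, 0.837% in Ppy, 0.711% in insulin and 0.709% in Gcg cells. In Tg7 insulin cells led there too, with 1.41% against 0.968% in Sst, 0.886% in Ppy and 0.775% in Gcg cells. Cells without a hormone at 5% or more then stood at 0.840% in Tg7, above Gcg cells, and lowest in Wt at 0.622%.

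**Figure D1:**
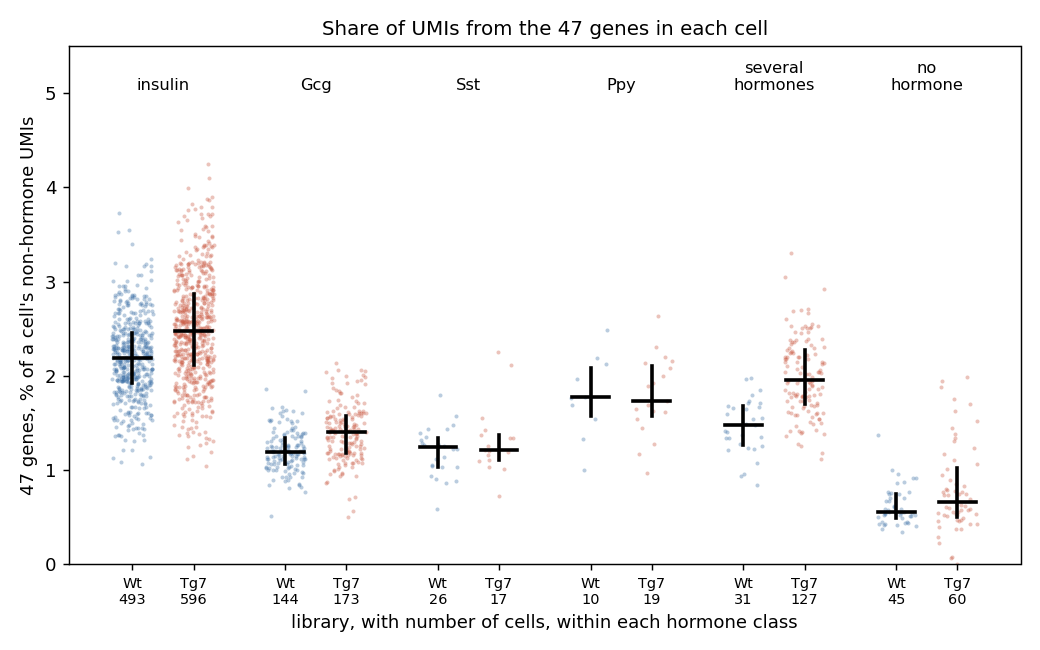
Each point is 1 cell, plotted by the share of its non-hormone UMIs that came from the 47 genes (%, vertical axis) within each hormone class and library (horizontal axis, number of cells below each column). Horizontal bars are medians over cells and vertical bars run from the lower to the upper quartile, with medians of 2.47% in Tg7 and 2.19% in Wt insulin cells, above all other columns on this scale. Per all UMIs the summed share in Wt was lower in insulin cells (0.711%) than in Sst (0.959%) and Ppy cells (0.837%).

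Between the libraries, the summed share in insulin cells was 1.14 times as high in Tg7 as in Wt (1.13 to 1.14), and in Gcg cells it was 1.19 times as high (1.17 to 1.22). The distributions over single cells overlapped widely, with quartiles from 2.11% to 2.87% in Tg7 and from 1.92% to 2.46% in Wt insulin cells. In Sst cells the ratio was 1.07 (0.997 to 1.15) and in Ppy cells 0.986 (0.931 to 1.04), and both intervals hold 1. Scaled to all UMIs, the share in insulin cells was 1.41% in Tg7 and 0.711% in Wt, a ratio of 1.98. Put against the product, Tg7 insulin cells held 20.3 insulin UMIs for each UMI of the 47 genes and Wt insulin cells held 87.8.

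Other large transcript classes moved in the same cells. Mitochondrial transcripts made up 8.30% of non-hormone UMIs in Tg7 and 12.0% in Wt insulin cells, and cytosolic ribosomal protein genes 14.4% and 9.28%. Without mitochondrial UMIs the ratio of the summed shares in insulin cells was 1.09, and without both it was 1.16, under scalings chosen after seeing the data. In Gcg cells the same scalings gave 1.20 and 1.23. Of the marker lists of other cell types, those of α-, δ- and γ-cells, which include the hormones, were higher in Tg7 insulin cells, at 107, 36.6 and 95.7 per 10,000 against 31.2, 23.4 and 17.8 in Wt. The 4 duct markers summed to 6.44 against 2.5 per 10,000 in insulin cells and to 5.81 against 2.31 in Gcg cells, with Krt19 at 0 in Tg7 insulin cells and in Gcg cells of both. The lists for endothelial, macrophage, acinar, stellate, lymphoid, erythroid and dividing cells were each at or below 0.769 per 10,000 in insulin cells and 1.06 in Gcg cells. Their part in the results was not tested.

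Per non-hormone UMI, insulin cells stood above Gcg cells for nearly all of these genes. In Wt, 37 of the 47 genes were at least 1.5-fold higher in insulin cells, where 35% of the 11531 genes with at least 20 UMIs were that much higher, and 0 were 1.5-fold lower, where 13% of all genes were. The median log2 ratio was 0.86 for the 47 genes and 0.28 for all genes. In Tg7, 29 were at least 1.5-fold higher, against 35.1% of 12308 genes, and 0 were lower, against 9.04%, with medians of 0.73 and 0.31. The counts rest on the scaling in Wt, since per all UMIs 5 genes were 1.5-fold higher there (Sec11c, Spcs3, Srprb, Ssr3 and Spcs2) and 5 lower (Tmed3, Ssr2, Copb1, Sec11a and Arcn1), against 12.5% and 48.7% of all genes, with a median log2 ratio of 0.02 for the 47 genes and −0.56 for all genes. In Tg7 the same scaling gave 33 higher (39.4% of all genes) and 0 lower (7.51%). It multiplies each Wt ratio of insulin over Gcg cells given below by 0.558 and each Tg7 ratio by 1.06, so that Wt ratios between 1 and 1.79 turn to the other side of 1. Of the 4 hormone classes, insulin cells had the highest level per non-hormone UMI of 39 of the 47 genes in Tg7, against 30% of 12344 genes, and of 36 in Wt, against 32.2% of 11589 genes. Per all UMIs they had the highest level of 39 in Tg7 (27.4% of all genes) and of 4 in Wt (8.11%), where Sst cells had that of 31 (63.2%). These shares of all genes include genes with as few as 20 UMIs over the 4 classes. For such genes the small Sst and Ppy classes can lead by counting error, so the shares are not a like comparison.

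Among the targeting factors, Srprb, which anchors the SRP receptor in the membrane, stood at 0.69 per 10,000 in Wt insulin and 0.221 in Wt Gcg cells, a ratio of 3.12 (2.19 to 4.61). In Tg7 it stood at 0.712 and 0.296 per 10,000, a ratio of 2.41 (1.79 to 3.30). All 6 genes of this machine were at least 1.5-fold higher in Wt insulin cells, and 5 of 6 were in Tg7. Srp19, an SRP protein that binds the RNA of the particle, had a ratio of 2.0 (1.58 to 2.57) in Wt and 3.21 (2.57 to 4.05) in Tg7.

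The signal peptidase had the highest summed ratios of the 7 machines, 2.64 (2.51 to 2.79) in Wt and 2.67 (2.55 to 2.80) in Tg7. Sec11c, a catalytic subunit of the peptidase, stood at 5.82 per 10,000 in Wt insulin and 1.34 in Wt Gcg cells, a ratio of 4.34 (3.76 to 5.04). In Tg7 the levels were 10.3 and 2.13 per 10,000, a ratio of 4.86 (4.36 to 5.43). Its alternative catalytic subunit Sec11a was close to even in Wt, at 1.44 and 1.26 per 10,000 (ratio 1.14, 0.976 to 1.34). The accessory subunit Spcs3 had the next largest ratio in Wt, 4.09 (3.44 to 4.90), with levels of 3.81 and 0.932 per 10,000. Of the 2 catalytic subunits, only Sec11c passed 1.5-fold in Wt, and per all UMIs the Wt ratios were 2.43 for Sec11c and 0.637 for Sec11a.

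In the translocon, Sec61g, a small subunit of the channel, stood at 21.2 per 10,000 in Wt insulin and 11.4 in Wt Gcg cells (ratio 1.85, 1.76 to 1.95). Ssr3, a translocon-associated protein, had the highest Wt ratio of this machine, 2.80 (2.43 to 3.25), and Ssr2 the lowest, 1.07 (0.980 to 1.17). All 7 oligosaccharyltransferase genes passed 1.5-fold in Wt, from Ddost at 1.60 to Krtcap2 at 2.55. Dad1, the subunit with the most UMIs there, stood at 8.53 and 5.27 per 10,000 (ratio 1.62, 1.5 to 1.75).

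The p24 receptors were mixed. Tmed2 stood at 7.92 per 10,000 in Wt insulin and 3.41 in Wt Gcg cells, a ratio of 2.32 (2.12 to 2.55). Tmed3 was the exception among the 47 genes, as it was lower in Wt insulin than in Wt Gcg cells, at 6.64 and 7.76 per 10,000 (ratio 0.855, 0.802 to 0.912). In Tg7 it was higher in insulin cells, at 12.3 and 8.60 per 10,000 (ratio 1.43, 1.35 to 1.51). In all 4 groups of cells Tmed3 was well detected, in 93.1% or more of the cells.

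The COPI coat had the smallest summed ratios, 1.42 (1.35 to 1.49) in Wt and 1.26 (1.21 to 1.32) in Tg7. Its highest Wt ratio was that of Copg1, a subunit of the cargo-binding part of the coat, at 1.57 (1.33 to 1.86). The COPI gene with the most UMIs in Wt insulin cells was Cope, at 4.20 per 10,000 against 2.71 in Gcg cells. The COPII coat stood at 2.01 (1.87 to 2.15) in Wt and 1.58 (1.49 to 1.68) in Tg7, led in Wt by Sar1b, a GTPase that starts coat assembly, at 2.79 and 1.06 per 10,000 (ratio 2.62, 2.23 to 3.11).

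**Figure D2:**
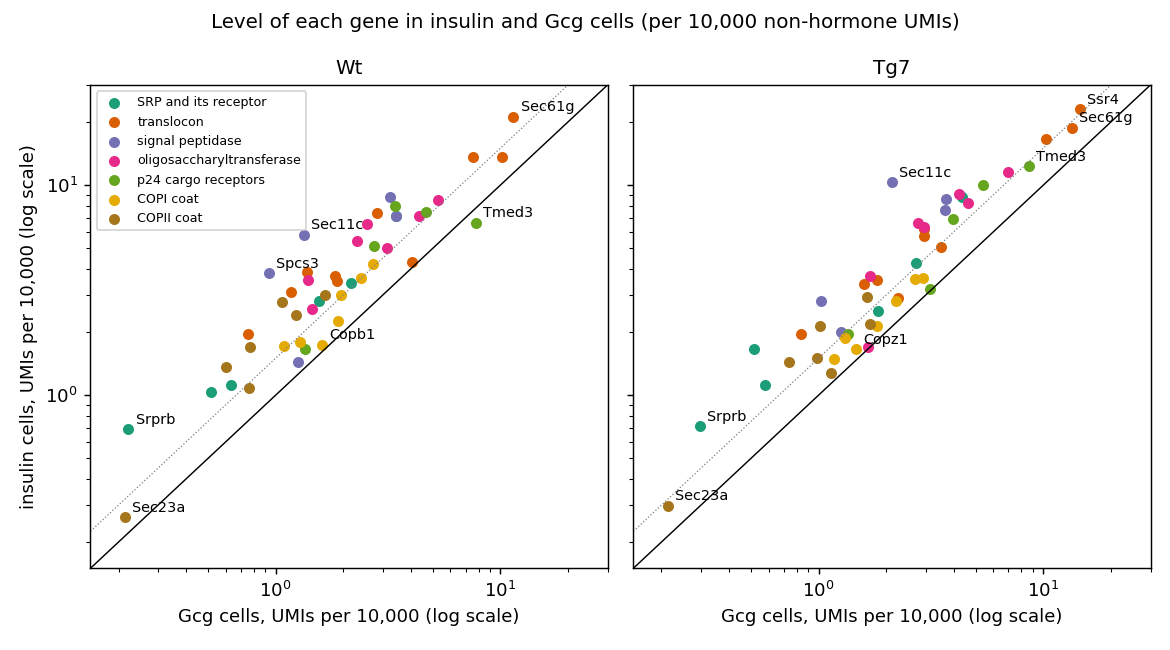
Each point is 1 of the 47 genes, plotted by its level in Gcg cells (horizontal) and insulin cells (vertical), both in UMIs per 10,000 non-hormone UMIs on log axes, for Wt (left) and Tg7 (right), with colours for the 7 machines. The solid line marks equal levels and the dotted line a 1.5-fold higher level in insulin cells. Above the solid line lie 46 genes in Wt, where 7569 of all 11531 genes were higher, and 47 in Tg7, where 8483 of 12308 were. Per all UMIs 26 of the 47 genes were higher in insulin cells in Wt, where 2857 of 11531 genes were.

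Comparing the genotypes within insulin cells, the question was how this machinery stood in β-cells that overexpress miR-7a2. In Tg7, 4 of the 47 genes were at least 1.5-fold higher, where 17.2% of 12788 genes were, and 2 were at least 1.5-fold lower, where 13.5% were. The 4 were Tmed3, Sec11c, Ssr4 and Srp19, and the 2 were Tmed9 and Ost4. All 47 had at least 100 UMIs, and of the 10379 genes with as many, 12.0% were higher and 12.8% lower. The median log2 ratio was 0.07 for the 47 genes and −0.02 for all genes. Smaller differences went both ways, with the counting interval above 1 for 22 genes, below 1 for 16 and holding 1 for 9, where it was above 1 for 26.3% and below 1 for 29% of all genes. The interval shares of all genes include genes with few UMIs and wide intervals, so they are not a like comparison. Per all UMIs 40 of the 47 genes were at least 1.5-fold higher in Tg7 and 0 were lower, where 66.8% of all genes were higher and 3.01% lower. The differences between members below do not depend on that choice, since it moves all of them by the same factor.

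Of the SRP genes, Srp19 had the highest ratio. It stood at 1.66 per 10,000 in Tg7 and 1.04 in Wt insulin cells, a ratio of 1.60 (1.47 to 1.73), with UMIs in 87.2% and 79.1% of the cells. Srp72 had the lowest, at 2.53 in Tg7 and 2.82 per 10,000 in Wt (ratio 0.895, 0.848 to 0.945). Srp9 and Srp14, which form a dimer at the other end of the SRP RNA, had like ratios of 1.22 (1.18 to 1.26) and 1.25 (1.19 to 1.30). Srprb, at 1.03 (0.928 to 1.15), and Srp68, at 0.997 (0.916 to 1.08), had intervals that hold 1.

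Within the translocon the genes of 1 complex differed. Of the 3 Sec61 subunits, Sec61b was higher in Tg7, at 16.5 against 13.6 per 10,000 (ratio 1.21, 1.19 to 1.24). Sec61g was lower, at 18.8 against 21.2 per 10,000 (ratio 0.888, 0.871 to 0.906). Sec61a1, the pore itself, was lower too, at 2.90 against 3.51 per 10,000 (ratio 0.825, 0.785 to 0.866), the lowest ratio of this machine. The translocon-associated proteins Ssr1 to Ssr4 all had ratios above 1. Ssr4 led with 22.9 per 10,000 in Tg7 and 13.6 in Wt (ratio 1.69, 1.65 to 1.72), and its quartiles over cells, 17.9 to 27.5 in Tg7 and 9.47 to 17.3 in Wt, did not overlap. The other 3 had ratios of 1.48 for Ssr3, 1.18 for Ssr2 and 1.10 for Ssr1. Tram1, at 0.835 (0.807 to 0.864), was lower, while the intervals of Sec62 and Sec63 hold 1.

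The signal peptidase showed the widest spread of ratios within a machine beside the p24 receptors. Sec11c stood at 10.3 per 10,000 in Tg7 and 5.82 in Wt (ratio 1.78, 1.72 to 1.84), and the quartiles over cells were 6.54 and 13.0 per 10,000 in Tg7 against 3.77 and 7.47 in Wt. Sec11a went the same way, at 2.0 against 1.44 per 10,000 (ratio 1.39, 1.29 to 1.49). Spcs3 was lower in Tg7, at 2.81 against 3.81 per 10,000 (ratio 0.735, 0.700 to 0.772). Spcs2, the subunit with the most UMIs in Wt, was at 7.64 against 8.75 per 10,000 (ratio 0.874, 0.847 to 0.901), and Spcs1 at a ratio of 1.21 (1.17 to 1.25).

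Of the oligosaccharyltransferase genes, 6 of 7 had ratios above 1 and their summed ratio was 1.22 (1.20 to 1.24), the highest of the machines. Krtcap2 led at 9.11 against 6.52 per 10,000 (ratio 1.40, 1.35 to 1.44), followed by Dad1 at 11.6 against 8.53 per 10,000 (ratio 1.35, 1.32 to 1.39). Ost4, a very small membrane subunit, went against the rest, at 1.69 in Tg7 and 2.57 per 10,000 in Wt (ratio 0.659, 0.619 to 0.700). It had UMIs in 87.9% of Tg7 and 95.3% of Wt insulin cells.

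The p24 receptors held both extremes of the 47 genes. Tmed3 stood at 12.3 per 10,000 in Tg7 and 6.64 in Wt, a ratio of 1.85 (1.80 to 1.91), with medians over cells of 11.2 and 6.37. Tmed9 stood at 3.21 per 10,000 in Tg7 and 5.13 in Wt, a ratio of 0.626 (0.599 to 0.654), with medians of 3.12 and 4.97. The lower quartile of Tmed3 in Tg7, 8.28 per 10,000, was close to its upper quartile in Wt, 8.34. Tmed2, at 6.91 against 7.92 per 10,000 (ratio 0.874, 0.846 to 0.902), was lower, and Tmed10, with 1.33, and Tmed4, with 1.17, were higher.

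The 2 coats stood on the other side of 1 from the machines before them. The summed ratio was 0.934 (0.914 to 0.953) for COPI and 0.933 (0.909 to 0.957) for COPII, whereas the 5 other machines had summed ratios between 1.14 and 1.22. COPI ratios ran from 0.847 (0.810 to 0.886) for Cope, at 3.56 against 4.20 per 10,000, to 1.08 (1.01 to 1.15) for Copb1, at 1.88 against 1.74. COPII ratios ran from 0.767 (0.725 to 0.811) for Sar1b, at 2.14 against 2.79 per 10,000, to 1.18 (1.08 to 1.28) for Sec13, at 1.28 against 1.08. Sar1a, the paralogue of Sar1b and the COPII gene with the most UMIs in Wt insulin cells, was at 2.92 against 3.0 per 10,000 (ratio 0.974, 0.925 to 1.03). Sec24d, a cargo-binding subunit, had a ratio of 1.06 (0.982 to 1.14). Per all UMIs all 14 coat genes, like the other 33, were higher in Tg7, where 11703 of all 12788 genes were.

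**Figure D3:**
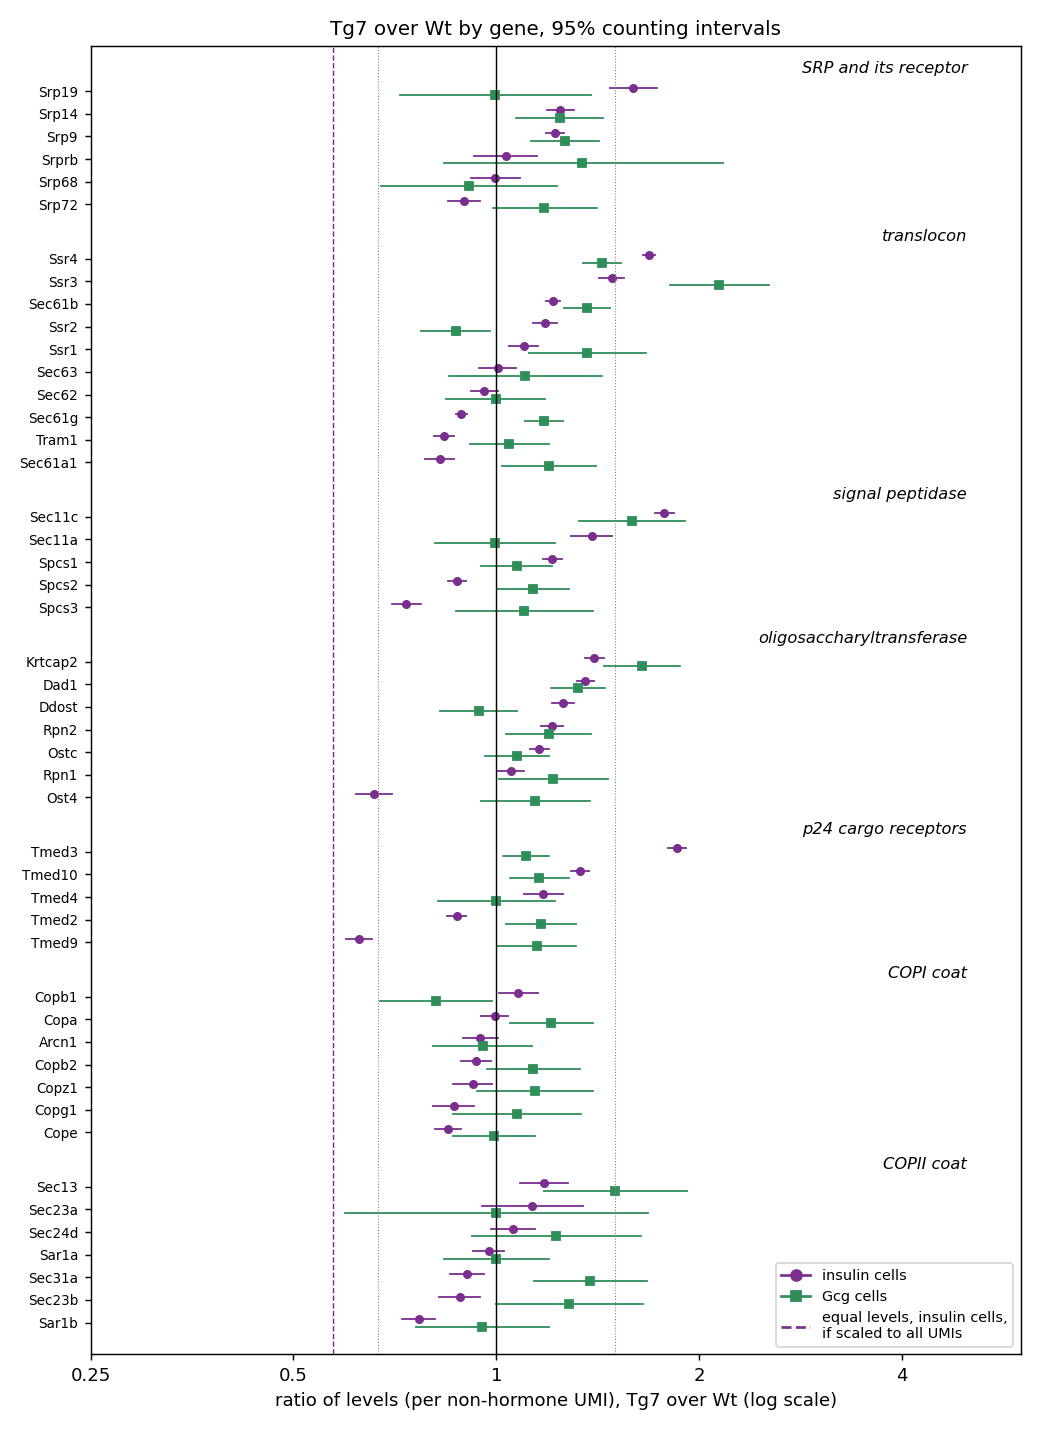
For each of the 47 genes, grouped by machine, the ratio of its level in Tg7 over Wt (horizontal, log scale, levels per non-hormone UMI) is drawn for insulin cells (circles) and Gcg cells (squares), with 95% counting intervals as bars. Dotted lines mark 1.5-fold and the dashed line, at 0.573, is where equal levels in insulin cells would lie if scaled to all UMIs. Insulin cells span from 0.626 (Tmed9) to 1.85 (Tmed3), all to the right of the dashed line.

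Gcg cells are not the target of the transgene, per the description of the series, but come from the same animals. In Gcg cells 4 of the 47 genes were at least 1.5-fold higher in Tg7, where 7.7% of 9250 genes were, and 0 were lower, where 12.4% were. Among genes with at least 100 UMIs, 4 of 45 members were higher (2.91% of 4295 genes) and 0 lower (7.92%). The median log2 ratio was 0.19 for the 47 genes and −0.06 for all genes, and the counting interval was above 1 for 21 genes and below 1 for 2 (Ssr2 and Copb1), where it was above 1 for 7.19% and below 1 for 11.7% of all genes. Shares of all genes include genes with few UMIs and wide intervals, so for intervals they are not a like comparison. Per all UMIs 2, Ssr3 and Krtcap2, were 1.5-fold higher (5.52% of all genes) and 0 lower (17.7%). Ssr3 had the highest ratio, at 2.94 per 10,000 in Tg7 and 1.37 in Wt (ratio 2.14, 1.81 to 2.54). Krtcap2 stood at 4.20 and 2.56 per 10,000 (ratio 1.64, 1.45 to 1.87). Sec11c stood at 2.13 and 1.34 per 10,000 (ratio 1.59, 1.33 to 1.91). Sec13, an outer subunit of the COPII cage, stood at 1.14 and 0.76 per 10,000 (ratio 1.5, 1.18 to 1.92), on 181 and 110 UMIs. The translocon had the highest summed ratio, 1.26 (1.22 to 1.30), and the COPI coat the lowest, 1.05 (0.985 to 1.12).

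The Sst and Ppy classes are small and gave wide intervals. In Sst cells 43 of the 47 genes reached 20 UMIs, of which 5 were at least 1.5-fold higher in Tg7 (12.8% of 2473 genes) and 3 lower (15.2%). The 5 were Ssr3, Rpn1, Spcs3, Tmed3 and Tmed10, and the 3 were Copb2, Tram1 and Sec23b. Ssr3 was again high, with 24 and 17 UMIs and a ratio of 2.57 (1.32 to 5.09), and Tram1 and Sec23b had intervals below 1. Intervals lay above 1 for 3 members and below 1 for 2, against 3.8% and 3.92% of all genes. In Ppy cells 46 genes reached 20 UMIs, with 3 higher (Srp68, Copb1 and Srp72, 12.4% of 2339 genes) and 3 lower (Copg1, Sec13 and Srprb, 12.4%). Of the 46, 0 had an interval above 1 and 2, Copg1 and Tmed3, had one below 1, against 2.78% and 4.23% of all genes. The other intervals, 38 of 43 in Sst and 44 of 46 in Ppy cells, hold 1, so that differences in these classes were mostly not detectable at this depth.

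The 2 well-sampled classes were set against each other directly, as the difference between the log2 ratios of Tg7 over Wt in insulin and in Gcg cells. Its 95% interval, from a normal approximation to the counting error of both ratios, lay above 0 for 8 genes (15.6% of the 9203 genes read in both classes) and below 0 for 19 (12.9%), with a median of −0.21 for the 47 genes and 0.01 for all genes. The largest positive differences were those of Tmed3 at 0.74 (0.62 to 0.87) and Srp19 at 0.68 (0.21 to 1.15). Srp19 had the same level in Gcg cells of both libraries, 0.516 per 10,000 in Tg7 and 0.518 in Wt. The largest negative ones were Tmed9 at −0.88 (−1.08 to −0.67) and Ost4 at −0.79 (−1.07 to −0.52), whose ratios in Gcg cells were 1.15 and 1.14. Sec11c, in contrast, was higher in Tg7 in both classes, and its difference of 0.16 (−0.10 to 0.42) holds 0. A change of scaling shifts all these differences by 1 common amount, which leaves their order as it is but not their signs. Per all UMIs all 47 differences were above 0, from 0.05 for Tmed9, with a median of 0.72 against 0.94 for all genes, and the interval lay above 0 for 44 of the 47 (68.8% of all genes) and below 0 for 0 (1.16%).

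The other genes of the pathway were read in 5 lists, whose counts stand against the 17.2% of all genes that were at least 1.5-fold higher in Tg7 insulin cells and the 13.5% that were lower. In insulin cells 2 of 22 further targeting and insertion genes were at least 1.5-fold higher in Tg7 (Tram2 on 43 and 20 UMIs and Tram1l1 on 51 and 11) and 2 lower (Srp54a and Mmgt1). Of 22 further glycosylation genes 1, Tusc3, was higher and 3 lower (Alg9, Dpm1 and Alg12). Emc7, of the ER membrane complex, had a ratio of 1.32 (1.23 to 1.41), and Emc10, of the same complex, 1.31 (1.23 to 1.40). Srp54a, the SRP subunit that binds the signal peptide, had a ratio of 0.622 (0.562 to 0.688), and its near copies Srp54b and Srp54c may share reads with it. Mmgt1 was at 0.603 (0.505 to 0.719). Among the glycosylation genes Tusc3, an oligosaccharyltransferase subunit, was at 2.42 against 1.58 per 10,000 (ratio 1.54, 1.44 to 1.64), Dpm1 at a ratio of 0.652 and Alg9 at 0.562.

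Of 24 further coat and p24 genes 1, Tmed6, was higher and 3 lower (Sec16b, Sec24c and Arf4). Tmed6, another p24 protein, was at 0.70 in Tg7 and 0.228 per 10,000 in Wt (ratio 3.07, 2.62 to 3.61), and Tmed1 at a ratio of 1.43. Sec16b, which organises ER exit sites, was at 0.156 against 0.334 per 10,000 (ratio 0.468, 0.386 to 0.565), and Sec24c at a ratio of 0.660. Of 29 cargo receptors and tethers 3 were higher (Kdelr3, Ergic3 and Cnih4) and 0 lower. Kdelr3, a receptor that returns escaped ER proteins, was at 0.375 against 0.0823 per 10,000 (ratio 4.56, 3.54 to 5.96), while its relatives Kdelr1 and Kdelr2 were at ratios of 1.14 and 0.971. Ergic3 was at 2.04 against 1.04 per 10,000 (ratio 1.96, 1.81 to 2.12). The cargo receptor Lman1 was at a ratio of 0.672 and the tethering GTPase Rab1a at 0.678.

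The list of ER folding and stress genes had the lowest summed ratio of the lists. In insulin cells 0 of its 28 genes were 1.5-fold higher in Tg7 and 8 were lower (Hspa5, Hyou1, Sdf2l1, Ddit3, Creb3l1, Calr, Herpud1 and Syvn1), where 17.2% and 13.5% of all genes were. Its summed ratio was 0.760 (0.755 to 0.765). Hspa5, the main ER chaperone BiP, was at 23.0 per 10,000 in Tg7 and 41.6 in Wt (ratio 0.553, 0.544 to 0.562). Ddit3, which encodes the stress factor CHOP, was at 1.5 against 3.72 per 10,000 (ratio 0.403, 0.380 to 0.427). Creb3l1 was at 0.159 against 0.820 per 10,000 (ratio 0.194, 0.165 to 0.229), and Dnajc3 and P4hb had the highest ratios, 1.26 and 1.17. Per all UMIs 10 of the 28 were 1.5-fold higher (66.8% of all genes) and 1, Creb3l1, lower (3.01%), and the ratio of Hspa5 was 0.965. In Gcg cells the summed ratio of the list was 0.978 (0.954 to 1.0).

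**Figure D4:**
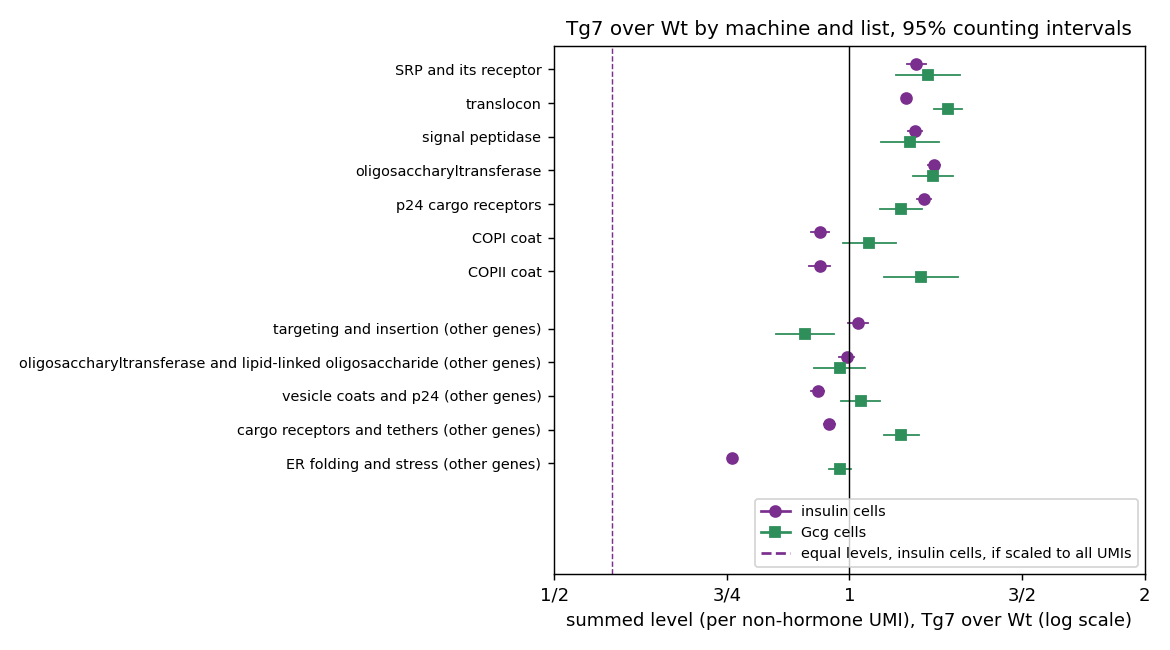
The ratio of summed levels in Tg7 over Wt (horizontal, log scale, levels per non-hormone UMI) is drawn for the 7 machines and for 5 lists of other genes of the pathway, in insulin cells (circles) and Gcg cells (squares), with 95% counting intervals as bars. In insulin cells it falls from 1.22 for the oligosaccharyltransferase to 0.934 and 0.933 for the coats and 0.760 for ER folding and stress genes. The dashed line, at 0.573, is where equal levels in insulin cells would lie if scaled to all UMIs, and all circles lie to its right.

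The promoters of the 47 genes were compared with those of the folding genes for the letters of elements known from the unfolded protein response. RefSeq promoter windows on GRCm38.p6, from 250 bases before to 50 after the annotated start, were matched for 37 of the 47 genes. No window was matched for Arcn1, Ostc, Sec11c, Sec61a1, Spcs3, Srp19, Srp68, Ssr2, Tmed2 and Tram1. The ER stress response element, searched on both strands as CCAAT followed after any 9 bases by CCACG, was in the windows of 0 of these 37 genes, of 8 of 23 ER folding and stress genes with a window (34.8%) and of 0.137% of all 27025 genes with one. As the element is known from that response and the list holds genes of it, the matches there are no independent result. With so low a share over all genes, 0 of 37 does not set the members apart. The element TGACGTGG, known as a core that ATF6 and XBP1 bind, was in the windows of 4 of the 37 genes (10.8%), of 0 of the 23 and of 0.714% of all genes. The 4 were coat genes, 2 of COPI and 2 of COPII. The short motif CCACG, which is part of the first element and is read on the other strand of TGACGTGG, was in 25 of the 37 genes (67.6%), in 18 of the 23 folding genes (78.3%) and in 35.5% of all genes. These are matches of letters, and no binding was measured here.

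The 4 sites in coat promoters are shown because these were the matches among the 47 genes, each written 5′ to 3′ on the strand that reads TGACGTGG (plus for Copb1 and Sec24d, minus for Copb2 and Sec23a), with those letters in capitals. Copb1 lies on the minus strand and its site at chr7:114254691-114254718, Copb2 on the plus strand with its site at chr9:98563714-98563741, Sec23a on the minus strand at chr12:59011994-59012021 and Sec24d on the plus strand at chr3:123267460-123267487. The first base of the match on the gene's strand lies 28, 7 and 26 bases before the annotated start of Copb1, Copb2 and Sec24d, and just after that of Sec23a.
Copb1: agtccttggcTGACGTGGaagggggcgg
Copb2: gccaacccacTGACGTGGaacttccggg
Sec23a: tcctccccttTGACGTGGcagaggcggc
Sec24d: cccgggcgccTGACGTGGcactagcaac

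For contrast, 4 sites of the longer element are shown, from 4 of the 8 folding genes that hold it, 3 of them lower and 1, Dnajc3, higher in Tg7 insulin cells per non-hormone UMI. They were chosen after their values were seen and are all read on the plus strand, with both parts of the element in capitals. They lie at chr2:34772020-34772048 for Hspa5, at chr8:84847070-84847098 for Calr, a chaperone of glycoproteins, at chr19:6046527-6046555 for Syvn1, a ubiquitin ligase of ER-associated degradation, and at chr14:118937822-118937850 for Dnajc3, a co-chaperone of BiP. The Tg7 over Wt ratios of Calr and Syvn1 in insulin cells were 0.640 (0.624 to 0.657) and 0.539 (0.479 to 0.605), and per all UMIs 1.12 and 0.940. The ratio of Dnajc3 was 1.26 (1.22 to 1.30). The other 4 genes with the element had ratios of 1.15 for Creld2, 0.903 for Hsp90b1, 0.848 for Pdia6 and 0.806 for Canx, so that genes with it lay on both sides of 1. Those of the 4 coat genes with TGACGTGG were 1.08 for Copb1, 0.933 for Copb2, 1.13 for Sec23a and 1.06 for Sec24d.
Hspa5: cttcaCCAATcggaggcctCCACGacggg
Calr: atgggCCAATgagggtcgaCCACGcgttg
Syvn1: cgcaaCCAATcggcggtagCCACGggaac
Dnajc3: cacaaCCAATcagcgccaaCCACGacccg

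Among single insulin cells, the share of the 47 genes in non-hormone UMIs went up with the share of insulin, and their share in all UMIs, a total that includes insulin itself, went down. Across cells, Spearman's rho between the insulin percentage of all UMIs and the percentage of the 47 genes among non-hormone UMIs was 0.35 in 596 Tg7 cells and 0.54 in 493 Wt cells (Pearson's r 0.34 and 0.46). In Wt the summed share was 1.94% in the tercile of cells with the least insulin, 2.20% in the middle tercile and 2.48% in the tercile with the most. In Tg7 it was 2.31%, 2.51% and 2.69%. Per all UMIs the same terciles stood at 0.816%, 0.691% and 0.642% in Wt and at 1.51%, 1.43% and 1.28% in Tg7, and rho was −0.35 in Tg7 and −0.53 in Wt. Insulin spanned 5.70% to 63.3% of UMIs in Tg7 and 20.1% to 75.9% in Wt, so that the terciles of the libraries do not match in insulin content. Cells of a library share depth and handling, and mitochondrial UMIs are part of both totals. The share of the 47 genes went down with the mitochondrial percentage, with rho of −0.52 in Tg7 and −0.58 in Wt. With mitochondrial UMIs left out of the total, rho with insulin was 0.34 in Tg7 and 0.54 in Wt.

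**Figure D5:**
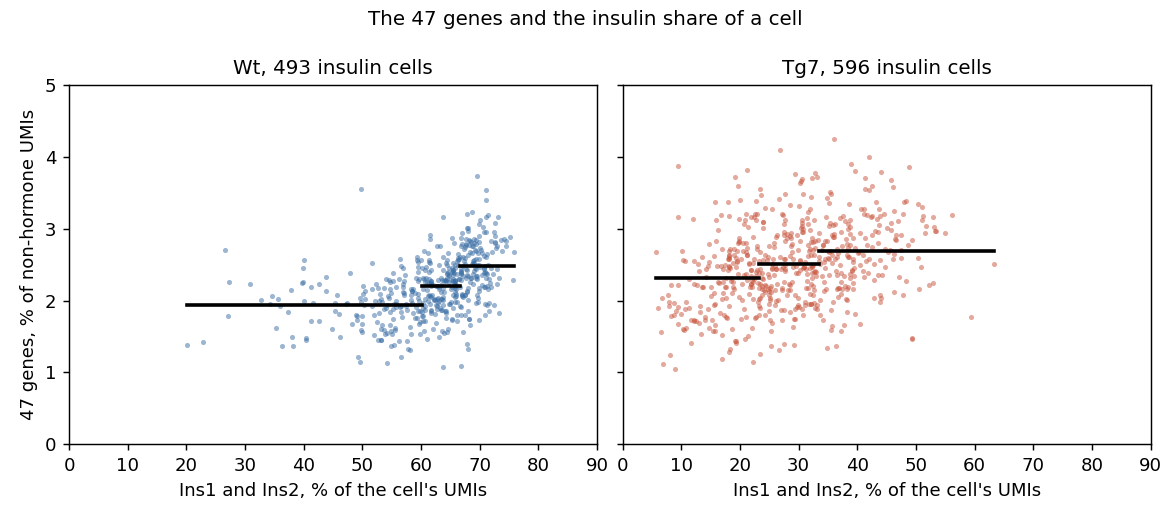
Each point is 1 insulin cell of Wt (left) or Tg7 (right), plotted by insulin as a percentage of its UMIs (horizontal) and the 47 genes as a percentage of its non-hormone UMIs (vertical). Black bars give the summed share in the terciles of cells with the least, middle and most insulin, drawn over the range of each tercile, and they step up from 1.94% to 2.48% in Wt and from 2.31% to 2.69% in Tg7. Per all UMIs the same shares step down, from 0.816% to 0.642% in Wt and from 1.51% to 1.28% in Tg7.

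In Gcg cells rho with their own hormone was 0.01 over 173 Tg7 cells and 0.23 over 144 Wt cells. In Tg7 their summed share was 1.48%, 1.44% and 1.41% from the tercile with the least to the tercile with the most Gcg. In Wt it was 1.16%, 1.23% and 1.27%. Per all UMIs it fell over the terciles in both, from 0.926% to 0.650% in Tg7 and from 0.764% to 0.652% in Wt. The 7 machines varied together among insulin cells, with a median rho over the 21 pairs of machines of 0.41 in Tg7, from 0.25 to 0.74, and of 0.38 in Wt, from 0.23 to 0.70. No other gene sets were read beside them, so whether this is particular to these genes was not tested.

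Cells with several hormones, which were kept apart from the classes above, stood between them per non-hormone UMI. In Tg7, 60 cells with both insulin and Gcg at 5% or more had a summed share of 2.10% and 28 with insulin and Ppy had 2.21%, both between Tg7 insulin and Gcg cells. In Wt, 8 cells with insulin and Gcg had 1.63%, and per all UMIs 0.814%, above both Wt insulin and Wt Gcg cells. The 2 Wt cells with insulin and Ppy had 1.76% of non-hormone UMIs, below both Wt insulin and Wt Ppy cells. The median of cells with insulin and Gcg, 44324 UMIs in Tg7 and 42700 in Wt, was above that of Gcg cells, 16221 and 16176. Against insulin cells, with medians of 29148 and 49274 UMIs, it was higher in Tg7 and lower in Wt. How many cells with several hormones are pairs of cells that the doublet caller missed was not tested. Among Tg7 insulin cells, the 60 in which Ins1 made up less than 1% of insulin UMIs had a summed share of 2.64% and the other 536 had 2.47%, with the same median over cells of 2.47%.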

How the data were processed

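Islets were obtained with Liberase and a Histopaque gradient, and single cells were profiled on the 10x Genomics platform. The matrices the authors deposited hold unnormalised UMI counts, made per the labels with bcl2fastq 2.17.1.14, Cell Ranger 3.0.2 and STAR on the mouse build mm10, with an annotation whose version the sources used here do not give. Barcodes under 1000 UMIs or above 20% mitochondrial UMIs (117 of 1123 in Tg7 and 100 of 855 in Wt) were dropped. Scrublet in scanpy 1.11.5, at an assumed rate of 0.8% per 1000 barcodes, then removed 14 and 6 doublets in place of the study's caller. Classes were rebuilt from hormone shares, and cells in which several hormones or none reached 5% were kept apart, so classes can differ from those of the study. Counts were summed per gene, class and library and divided by the non-hormone UMIs of that sum. Ratios have exact conditional binomial intervals. A gene was compared if it had 20 or more UMIs over both sums, and counted as higher or lower past 1.5-fold. TMM factors came from edgeR 4.0.16, used for scaling only. The members and lists were chosen with earlier results of these data known. Full values were given by a fixed rule, for the extremes of each machine, the most UMIs in Wt insulin cells, the genes past 1.5-fold and up to 2 highest and 2 lowest genes with at least 100 UMIs of each other list. Kdelr1, Kdelr2, Hspa5, Calr, Syvn1, Creld2, Hsp90b1, Pdia6 and Canx, the other genes named as past 1.5-fold in those lists and the other members given with full values were named after their values were seen. A gene of the glycosylation list that this rule names is not reported here.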

Additional observations from a re-analysis of the deposited data

How the results depend on the processing

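No paired analysis was possible because each group is 1 library and the results come from no test, and no library could be left out. Under 14 other settings, 140 of 168 counts of members stayed within 1.5 times the value reported, 69 of 78 medians moved by less than 0.1 (log2), 4 of which changed sign, and 24 of 36 ratios of the summed share stayed within their counting interval. Some of these could not move. All 47 members passed both other UMI minimums in insulin cells and between insulin and Gcg cells, so these counts and medians stayed the same by construction. The other counts and share ratios follow, with the medians that moved or changed sign, and where no construction of the setting shows the cause, the cause was not tested. Percentages in brackets after counts are shares of all genes under the same setting. Per all UMIs, 40 members were higher and 0 lower in Tg7 insulin cells (66.8% and 3.01%). In Gcg cells 2 were higher (5.52%) and in Sst cells 3 (9.75%). In Wt, 5 were higher and 5 lower in insulin than Gcg cells (12.5% and 48.7%). With this scaling the median log2 ratio of Tg7 over Wt was 0.87 in insulin, 0.065 in Gcg and 0.15 in Ppy cells and turned to −0.011 in Sst cells. That of Wt insulin over Gcg cells was 0.021. The share ratios were 1.98 (insulin), 1.09 (Gcg) and 1.06 (Ppy). Past 2-fold, which allows fewer calls by construction, 0 were higher and 0 lower in Tg7 insulin cells (9.85% and 5.76%) and 1 higher in Gcg cells (2.44%). In each of Sst and Ppy cells 1 was higher (3.32% and 4.32%) and 1 lower (5.66% and 3.93%). Between insulin and Gcg cells, 15 in Tg7 (20.2%) and 19 in Wt (20.3%) were higher in insulin cells. With the mean of single-cell shares, 2 were higher in Gcg, 8 higher and 5 lower in Sst, and 5 higher in Ppy cells, with a median of 0.26 in Sst cells. A minimum of 100 UMIs left 11 members in Sst and 15 in Ppy cells. Of these, 2 were higher and 0 lower in Sst cells (3.96% and 6.10%), with a median of −0.0080. In Ppy cells 0 were higher and 0 lower (1.81% and 4.52%). TMM factors gave 3 higher in Sst cells (12.6%). Between insulin and Gcg cells they gave 20 higher in Tg7 (24.1%) and 26 in Wt (25.2%), with medians of 0.45 and 0.61. The stricter cell filter (2000 UMIs, 10% mitochondrial) turned the medians to −0.011 in Sst and −0.012 in Ppy cells. A hormone threshold of 10% gave 2 higher in Sst cells (13.6%), and a threshold of 2.5% gave share ratios of 1.16 (insulin) and 1.15 (Gcg). Placing every cell by its leading hormone gave 3 higher in Sst cells (12.2%) and a median of 0.19 in Ppy cells. Its share ratios were 1.12 (insulin), 1.25 (Gcg) and 1.05 (Ppy). Limiting the other hormones relative to the leading hormone gave 1 higher in Ppy cells (12.0%). The Gcg share ratio was then 1.16 and the median in Sst cells 0.22. Of the scalings added after seeing the data, that without mitochondrial UMIs gave an insulin share ratio of 1.09. That without mitochondrial and ribosomal protein UMIs gave 1.16 (insulin) and 1.23 (Gcg) and 1 member lower in insulin cells (12.7%). Counts in Sst and Ppy cells rest on few UMIs and change with most settings.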
